A study of Mus musculus with 8 samples.

Results

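The β-thymosins and the proteins that share actin with them were followed through the RNA of sorted Lgr5-GFP+ intestinal crypt cells. The 7 genes were *Tmsb10*, its near copy *Gm9844*, *Tmsb4x*, the actins *Actb* and *Actg1*, cofilin (*Cfl1*) and profilin (*Pfn1*). They were taken by symbol from the 25485 genes of the normalised table and joined by Ensembl identifier to the 53801 genes of the count table, and all 7 passed the filter on low counts that left 16445 genes for testing. *Tmsb10* and *Gm9844* were chosen by these very counts, because they were higher in the libraries labelled β-catGOF; Mll1-/- than in those labelled β-catGOF; Mll1+/-, so their difference between the genotypes is given as a description without a test. The other 5 genes were added for their function.

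Both groups of mice carried Lgr5-EGFP-IRES-CreERT2 and β-catGOF, an allele whose exon 3 is deleted by Cre so that β-catenin is no longer degraded, and they differed in the number of floxed alleles of Mll1, a histone methyltransferase encoded by *Kmt2a*. Cre was driven from the Lgr5 locus, so recombination was limited to cells in which this locus was active. The mice received tamoxifen at 50 mg/kg on 3 days at an age of 4 to 6 weeks, and the cells were collected 10 days after induction, with 1 library from each of 8 mice and 4 mice for each genotype. No group without β-catGOF and none with unfloxed Mll1 was analysed here. The libraries held 14468751 to 16847793 counts on genes, of which the 7 genes took 0.432 to 0.621%. Under the label β-catGOF; Mll1-/-, *Kmt2a* counts did not fall below those of the other label (63.5 ± 10.7 against 53.8 ± 7.45 CPM, SD, n = 4 each, log2 fold change 0.24, edgeR adjusted p = 0.710). CPM are counts scaled to library size. A floxed exon cannot be read from gene totals, and each library is therefore called by its label. Library J_7135, labelled β-catGOF; Mll1-/-, stood apart: its Spearman correlation over genes with its nearest library was 0.909, while each of the other libraries reached at least 0.947. The library numbers form 2 sets with 2 libraries of each genotype, set 1 with mice J_7075, J_7079, J_7096 and J_7100 and set 2 with mice J_7134, J_7135, J_7136 and J_7139. The labels do not give the sex of the mice. In set 1, *Xist*, an RNA of female cells, was at 0.649 and 2.84 CPM under β-catGOF; Mll1-/- and at 523 and 517 CPM under β-catGOF; Mll1+/-. Every difference within set 1 therefore cannot be told apart from a difference with *Xist* level. In set 2 it was at 208 and 759 CPM and at 0 and 404 CPM.

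In animal cells, actin is held in a pool of monomers and in filaments that grow at one end and shrink at the other. β-thymosins are very short proteins that bind actin monomers and keep them from joining a filament. Profilin also binds monomers but hands them to growing filament ends, and cofilin severs ageing filaments and returns monomers to the pool. *Tmsb4x* and *Tmsb10* encode thymosin β4 and thymosin β10, the main β-thymosins of mammals. In the intestinal epithelium, actin filaments form the core of the microvilli and the belt beneath the cell junctions.

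The coding sequences of the 3 thymosin genes are shown because they bear on which counts can be told apart. They were read from GENCODE release M21 on GRCm38, the build of the count table, and each holds 135 bases including the stop codon. Capitals mark the bases that differ from *Tmsb10*.

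Tmsb10: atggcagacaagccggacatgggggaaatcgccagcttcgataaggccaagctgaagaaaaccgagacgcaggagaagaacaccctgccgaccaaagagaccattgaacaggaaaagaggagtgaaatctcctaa
Gm9844: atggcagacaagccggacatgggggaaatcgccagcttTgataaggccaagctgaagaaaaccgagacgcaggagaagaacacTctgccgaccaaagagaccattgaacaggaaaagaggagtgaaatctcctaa
Tmsb4x: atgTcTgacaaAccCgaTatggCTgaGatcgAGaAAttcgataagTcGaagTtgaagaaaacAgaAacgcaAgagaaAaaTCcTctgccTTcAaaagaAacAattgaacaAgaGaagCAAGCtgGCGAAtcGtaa

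*Gm9844* differed from *Tmsb10* at 2 coding positions, C39T and C84T, counted from the first base of the start codon with the base of *Tmsb10* first. *Tmsb4x* differed at 40 of the 135 positions (70.4% identity). *Tmsb10* (ENSMUSG00000079523) lies on the minus strand at chr6:72957347-72958748, its transcripts have up to 4 exons, and its coding bases are split over 2 exons. *Gm9844* (ENSMUSG00000091955) has a single exon on the plus strand at chr7:24862213-24862697 and carries the retrogene tag of GENCODE, which marks a copy made from processed RNA. The annotation types it as protein coding. Over 466 aligned transcript bases the 2 genes differed at 4, without a gap, and the longest identical run was 198 bases. Of the 31-base words of *Gm9844*, 73.8% occurred in transcripts of *Tmsb10*, and 32.0% of those of *Tmsb10* occurred in other genes. No word of *Tmsb4x* (ENSMUSG00000049775, chrX:167207093-167209315, minus strand) was found in another gene.

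*Tmsb10* was the thymosin that stood higher in the libraries labelled β-catGOF; Mll1-/-. Scaled with TMM factors, its CPM reached 139 (J_7075), 129 (J_7096), 146 (J_7135) and 139.7 (J_7136). In the β-catGOF; Mll1+/- libraries the CPM was 87.1 (J_7079), 83.7 (J_7100), 81.2 (J_7134) and 67.6 (J_7139). The genotypes did not overlap, which is no evidence of its own because the gene was chosen by these same counts. The means were 138 ± 6.86 and 79.9 ± 8.54 CPM (SD, n = 4 each), which corresponds to 1.73-fold or a log2 fold change of 0.79 ± 0.12 (SE). It was 0.65 in library set 1, 0.94 in set 2 and 0.76 without J_7135. The values behind these levels were 2127 to 2691 counts per library labelled β-catGOF; Mll1-/- and 1012 to 1455 counts per β-catGOF; Mll1+/- library.

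*Gm9844* gave nearly the same picture, with CPM of 133 (J_7075), 138 (J_7096), 152 (J_7135) and 144 (J_7136) against 86.4 (J_7079), 87.5 (J_7100), 83.1 (J_7134) and 74.2 (J_7139). The genotypes again did not overlap, and J_7139 was the lowest library for both genes. Mean levels were 142 ± 7.95 and 82.8 ± 6.02 CPM (SD, n = 4 each), or 1.71-fold (log2 fold change 0.78 ± 0.11, SE). Within the library sets it was 0.64 and 0.91. In each library the counts of *Gm9844* were close to those of *Tmsb10*, between 96.2 and 107% of them in the libraries labelled β-catGOF; Mll1-/- and between 99.2 and 109.8% in the β-catGOF; Mll1+/- libraries. Given the shared transcript sequence, a read may not be credited to the right gene of the pair. Only uniquely mapped reads were counted, so reads from identical stretches may also be missing from both. The pair is therefore uncertain as 2 separate genes. The counts do not tell whether RNA of the retrogene was present.

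Of the 16445 genes tested, 14 (0.0851%) had an adjusted p under 0.1 (edgeR), 8 of them higher in the libraries labelled β-catGOF; Mll1-/- (0.0486%), and *Tmsb10* and *Gm9844* were among these 8, which is how they were chosen. With the library sets as a block, 0 of the 16445 genes had an adjusted p under 0.1 by edgeR (868 were higher and 774 lower at an unadjusted p under 0.05), and the pair was past the threshold in 1 of the 8 fits that left out a library, the one without J_7135. Among *Tmsb4x*, *Actb*, *Actg1*, *Cfl1* and *Pfn1*, 0 genes passed that threshold by DESeq2's Wald test or by limma-voom, which called 406 and 103 of the 16445 genes. By edgeR, 0 of these 5 passed it as well. At an unadjusted p under 0.05, 2 of the 5 were higher (*Cfl1* and *Pfn1*), as were 5.40% of all genes tested, and 0 of the 5 were lower, as were 3.75% of all genes tested. With the library sets as a block, *Actb* was higher as well, which made 3 of the 5 higher beside 5.28% of all genes tested, and *Tmsb4x* made 1 of the 5 lower beside 4.71%. In 3.34% of all genes tested every library labelled β-catGOF; Mll1-/- lay above every β-catGOF; Mll1+/- library, and *Cfl1* was the 1 gene of the 5 in this class. In 2.94% every library lay below, and none of the 7 genes did.

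**Figure D1:**
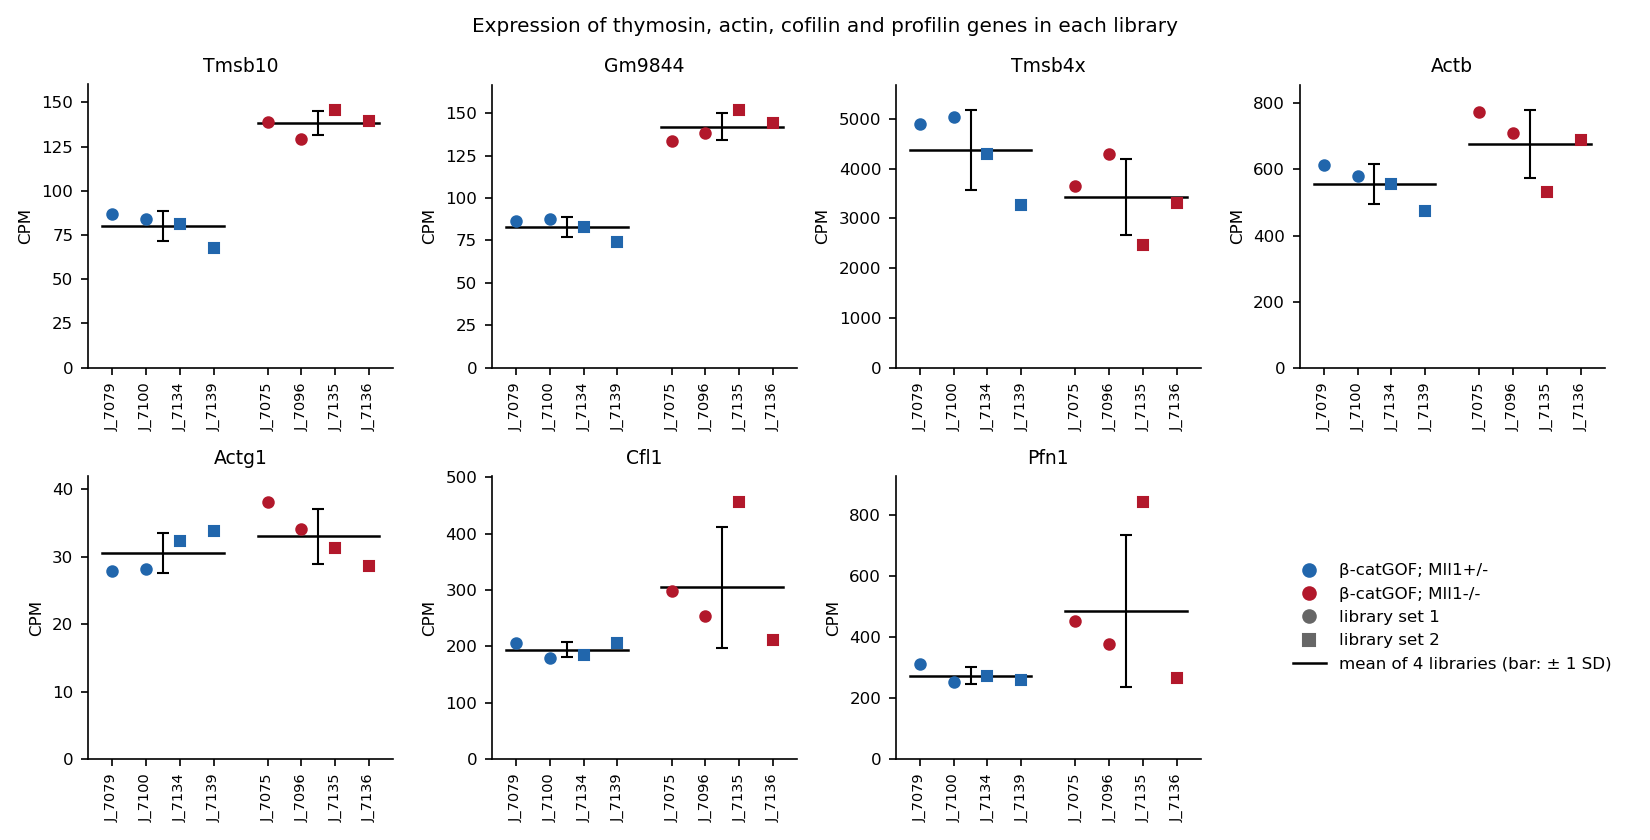
Expression in CPM (vertical axes, from 0) of the 7 genes in each of the 8 libraries, with circles for library set 1 and squares for set 2, lines for the mean and bars for 1 SD of the 4 libraries of a genotype. *Tmsb10* and *Gm9844* do not overlap between the genotypes, and J_7135 holds the highest points of *Cfl1* (457 CPM) and *Pfn1* (843 CPM).

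*Tmsb4x*, the other thymosin, was not higher in the libraries labelled β-catGOF; Mll1-/-. Its CPM was 3663 (J_7075), 4301 (J_7096), 2465 (J_7135) and 3308 (J_7136), compared with 4899 (J_7079), 5034 (J_7100), 4303 (J_7134) and 3277 (J_7139). The ranges overlapped, with 1 library labelled β-catGOF; Mll1-/- below all of the β-catGOF; Mll1+/- libraries and none above them. A difference was not shown (log2 fold change -0.35 ± 0.19, SE, 95% interval -0.77 to 0.07, edgeR adjusted p = 0.621). It was -0.32 in library set 1, -0.40 in set 2 and -0.22 without J_7135. *Tmsb4x* is X-linked, and *Xist*, the RNA expressed from the inactive X chromosome of females, was at 0.649, 2.84, 208 and 759 CPM in the libraries labelled β-catGOF; Mll1-/- and at 523, 517, 0 and 404 CPM in the β-catGOF; Mll1+/- libraries, in the order of mouse numbers. With *Xist* as a covariate the log2 fold change of *Tmsb4x* was -0.40 (adjusted p = 0.522, edgeR). The remaining β-thymosins were scarce. *Tmsb15b1* and *Tmsb15b2* were tested and were at 6.26 and 1.26 CPM in the β-catGOF; Mll1+/- libraries, and *Tmsb15a* and *Tmsb15l* did not pass the filter on low counts.

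The 2 actin genes of non-muscle cells did not pass the test. *Actb* (ENSMUSG00000029580, chr5:142903115-142906754), which encodes β-actin, had CPM of 773 (J_7075), 710.5 (J_7096), 530.3 (J_7135) and 690.5 (J_7136). The β-catGOF; Mll1+/- libraries held 614 (J_7079), 581 (J_7100), 556 (J_7134) and 474 (J_7139). In each library set, the β-catGOF; Mll1+/- libraries were on average lower, and J_7135 alone kept the genotypes from separating: the other 3 libraries of its genotype lay above the highest β-catGOF; Mll1+/- library. The log2 fold change of *Actb* was 0.28 ± 0.13 (SE, 95% interval -0.02 to 0.58, edgeR adjusted p = 0.574), and 0.38 without J_7135.

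*Actg1* (ENSMUSG00000062825, chr11:120345690-120348542), the gene of γ-actin, was counted far less often. Its CPM values were 38.2 (J_7075), 34.1 (J_7096), 31.3 (J_7135) and 28.6 (J_7136) against 27.9 (J_7079), 28.1 (J_7100), 32.4 (J_7134) and 33.8 (J_7139). The direction was opposite in the 2 library sets: both libraries labelled β-catGOF; Mll1-/- lay above both others in set 1 (log2 difference 0.36) and below both in set 2 (-0.15). Over all libraries *Actg1* had a log2 fold change of 0.11 ± 0.16 (SE, 95% interval -0.25 to 0.48, edgeR adjusted p = 0.880). Many processed copies share sequence with *Actg1*, and 40.2% of its 31-base words occurred in 35 other genes, 22 of them typed as pseudogenes. For *Actb* the share was 23.6%, and its largest partner was *Lrrc58* with 15.2%. Only uniquely mapped reads were counted, so the low *Actg1* level is uncertain.

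Cofilin and profilin mRNA stood higher in most of the libraries labelled β-catGOF; Mll1-/-, and the difference was smaller without J_7135. *Cfl1* (ENSMUSG00000056201, chr19:5490455-5495201) had CPM of 298 (J_7075), 253 (J_7096), 457 (J_7135) and 211 (J_7136), and of 207 (J_7079), 180.3 (J_7100), 185 (J_7134) and 206 (J_7139). The genotypes did not overlap, but J_7136 was only just above J_7079. *Cfl1* differed by 0.65 ± 0.22 on the log2 scale (SE, edgeR unadjusted p = 0.0144 and adjusted p = 0.449), and by 0.39 without J_7135. It was 0.51 in library set 1 and 0.67 in set 2, which holds J_7135. In GENCODE M21, 16.5% of the 2844 exonic bases of *Cfl1* overlap exons of *Snx32*. The deposited counts give *Cfl1* a length of 2354 bases, so how reads in the shared bases were counted is uncertain.

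*Pfn1* (ENSMUSG00000018293, chr11:70651850-70654644) had CPM of 452 (J_7075), 378 (J_7096), 843 (J_7135) and 267 (J_7136). The β-catGOF; Mll1+/- libraries lay between 251 and 313 CPM, with 313 (J_7079), 251 (J_7100), 272 (J_7134) and 259 (J_7139). J_7136 fell inside this range and the other 3 libraries of its genotype lay above it. Its difference of 0.83 ± 0.30 on the log2 scale (SE, edgeR unadjusted p = 0.0224 and adjusted p = 0.481) became 0.42 without J_7135. The coefficient of variation of *Pfn1* was 51.7% in the libraries labelled β-catGOF; Mll1-/- and 10.0% in the β-catGOF; Mll1+/- libraries, and that of *Cfl1* was 35.3 and 7.05%. Without J_7135 the values in the libraries labelled β-catGOF; Mll1-/- were 25.6% for *Pfn1* and 17.1% for *Cfl1* (n = 3). For *Tmsb10* the coefficient was 4.96 and 10.7% with all libraries.

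**Figure D2:**
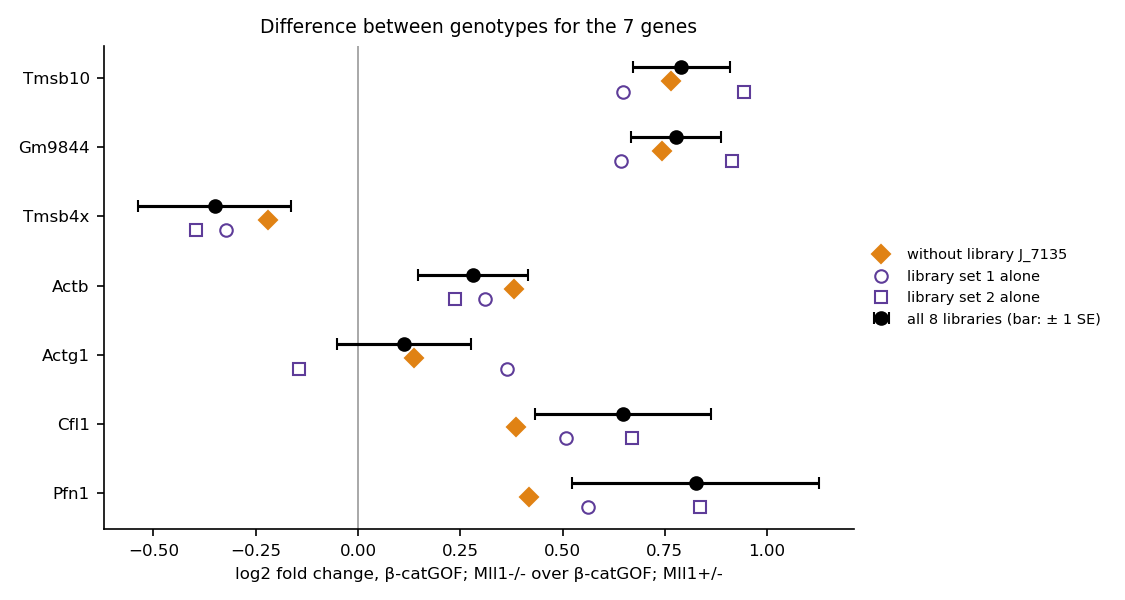
Log2 fold change of the libraries labelled β-catGOF; Mll1-/- over the β-catGOF; Mll1+/- libraries (horizontal axis) for the 7 genes, with all 8 libraries (black, bar 1 standard error), without J_7135 (orange) and within library sets 1 and 2 (open circles and squares). *Actg1* takes opposite signs in the 2 sets (0.36 and -0.15), and *Pfn1* moves from 0.83 to 0.42 without J_7135.

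Levels of different genes were compared per length, as CPM per kilobase of the gene's exons. *Tmsb4x* was far ahead with 3193 ± 583 in the β-catGOF; Mll1+/- libraries and 2505 ± 558 in the libraries labelled β-catGOF; Mll1-/- (SD, n = 4 each), and it ranked 16 by this measure in both genotypes, among 35767 genes with at least 1 count in the former. In the β-catGOF; Mll1+/- libraries *Actb* followed with 208 ± 22.3, then *Gm9844* with 171 ± 12.4, *Pfn1* with 114 ± 11.4, *Cfl1* with 82.6 ± 5.82, *Tmsb10* with 62.6 ± 6.70 and *Actg1* with 11.5 ± 1.12 CPM per kilobase. *Actb* and *Gm9844* overlapped in their ranges, and all other neighbours in this order were separate. The short exon of *Gm9844* (485 bases against 1276 for *Tmsb10*) sets its higher level per length at nearly equal counts. The 1276 bases join the exons of 4 *Tmsb10* transcripts, while the transcript whose coding sequence is shown holds 570 bases. On that shorter length the level of *Tmsb10* would be higher, so its place in this order and its rank depend on the length used.

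In the libraries labelled β-catGOF; Mll1-/- the same scale gave 293 ± 16.4 for *Gm9844*, 252 ± 38.6 for *Actb*, 202 ± 104 for *Pfn1*, 129.5 ± 45.6 for *Cfl1*, 108 ± 5.37 for *Tmsb10* and 12.4 ± 1.54 for *Actg1* (SD, n = 4). Here only *Tmsb4x* at the top and *Actg1* at the bottom were separate from their neighbours, and the ranges of each other neighbouring pair overlapped. *Gm9844* was above *Actb* in 3 of the 4 libraries, while *Actb* was above *Gm9844* in all 4 β-catGOF; Mll1+/- libraries. By rank per length, *Tmsb10* moved from 1076 to 615 and *Gm9844* from 431 to 236, and these ranks follow from the difference by which they were chosen. *Pfn1* ranked 613 and 343, *Cfl1* 837 and 525, *Actb* 365 and 270 and *Actg1* 4160 and 3974.

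**Figure D3:**
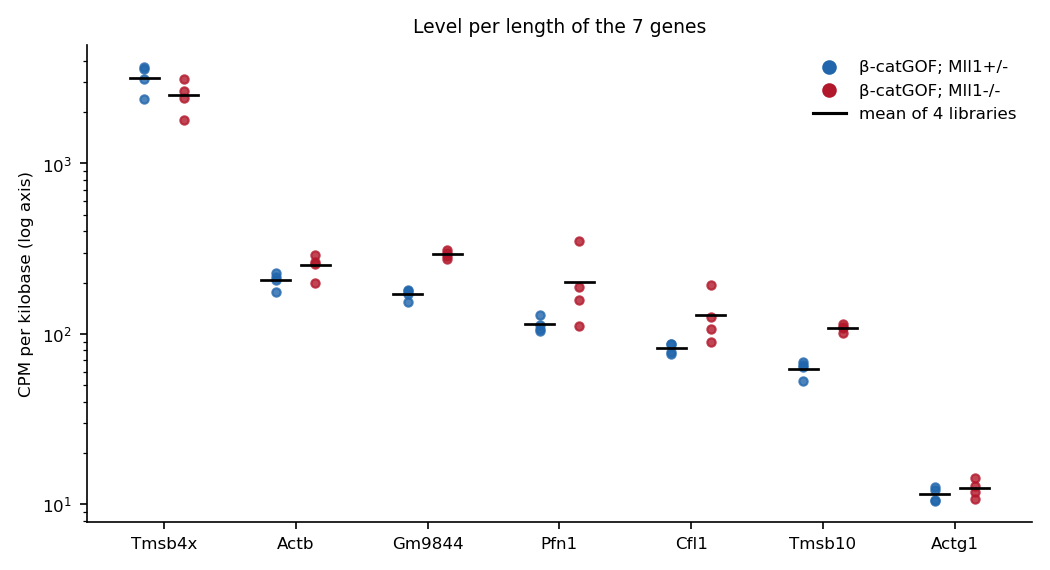
CPM per kilobase (vertical log axis) of the 7 genes in each library, blue for β-catGOF; Mll1+/- and red for β-catGOF; Mll1-/-, with a line at the mean of 4 libraries. *Tmsb4x* lies an order of magnitude above *Actb*, and *Actg1* is the lowest of the 7 genes in both genotypes.

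Ratios within a library do not depend on the scaling between libraries. *Tmsb10* counts amounted to 1.78, 1.66, 1.89 and 2.06% of *Tmsb4x* counts in the β-catGOF; Mll1+/- libraries J_7079, J_7100, J_7134 and J_7139. In J_7075, J_7096, J_7135 and J_7136, labelled β-catGOF; Mll1-/-, they amounted to 3.78, 3.00, 5.90 and 4.22%. *Tmsb4x* was by far the more abundant of both in every library, and the share of *Tmsb10* did not overlap between the genotypes. The log2 ratio per length differed by 1.16, and this difference holds the gene that was chosen for it.

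The ratio of *Tmsb4x* to *Actb* counts, which does not involve the chosen genes, also did not overlap. It was 4.74 in J_7075, 6.05 in J_7096, 4.65 in J_7135 and 4.79 in J_7136, and 7.98 in J_7079, 8.66 in J_7100, 7.75 in J_7134 and 6.91 in J_7139. J_7096 was the library of its genotype nearest to the others. The log2 ratio was lower by 0.63 in the libraries labelled β-catGOF; Mll1-/- (3.30 ± 0.18 against 3.93 ± 0.13, SD, n = 4 each). It joins the log2 fold changes of *Tmsb4x* (-0.35) and *Actb* (0.28), neither of which passed the test. How often ratios of other gene pairs separate was not worked out, and this ratio was not tested. *Tmsb4x* and *Actb* thus held opposite signs between the genotypes but deviated together within them, as described next. The other ratios without the chosen genes, of *Actg1*, *Cfl1* and *Pfn1* to *Actb* and of *Pfn1* to *Cfl1*, overlapped between the genotypes. *Pfn1* to *Cfl1* was 1.41 ± 0.11 in the β-catGOF; Mll1+/- libraries and 1.53 ± 0.24 in the others (SD, n = 4 each), with the highest value, 1.85, in J_7135.

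**Figure D4:**
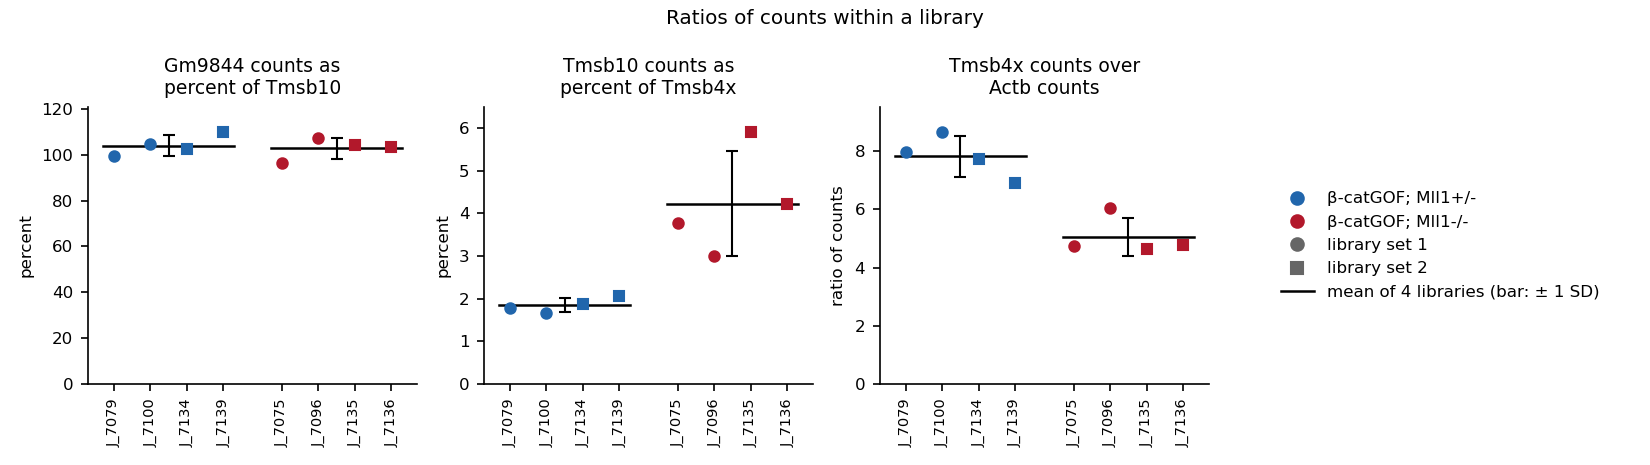
Ratios of counts within each library (vertical axes from 0, percent for the first and second panel), with circles and squares for library sets 1 and 2, lines for means and bars for 1 SD of 4 libraries. *Gm9844* stays near *Tmsb10* in all libraries, *Tmsb10* takes 1.66 to 2.06% of *Tmsb4x* in one genotype and 3.00 to 5.90% in the other, and *Tmsb4x* over *Actb* is lower in the libraries labelled β-catGOF; Mll1-/-.

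Deviations from the genotype mean show which genes moved together from mouse to mouse. Over the 8 libraries, the log2 CPM deviations of *Cfl1* and *Pfn1* had a Pearson correlation of 0.98, those of *Tmsb4x* and *Actb* 0.90 and those of *Tmsb10* and *Gm9844* 0.87. *Tmsb10* and *Tmsb4x* had 0.27, and *Actb* had -0.63 with *Cfl1* and -0.53 with *Pfn1*. These values describe 8 libraries that share their scaling, J_7135 holds the largest deviations of *Cfl1* and *Pfn1*, and the reads of *Tmsb10* and *Gm9844* may not be told apart. Differences between the library sets were left in the deviations. In each genotype, *Tmsb4x* and *Actb* were higher in both libraries of set 1 than in both libraries of set 2. The part of the library sets in these correlations was not tested. Among 8914 genes with a mean of at least 10 CPM, the 5 whose deviations were most like those of *Tmsb10*, the 7 genes aside, were *Gm830* (0.96), *9130401M01Rik* (0.96), *Mon1b* (0.96), *Pold4* (0.94) and *Ralgds* (0.94). For *Tmsb4x* they were *Gm12254*, *Rsu1*, *Gm6030*, *Gm13092* and *Rps3a2*, with correlations from 0.987 to 0.996. Correlations over 0.9 with *Tmsb4x* were found for 151 genes and with *Tmsb10* for 20 genes.

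The wider actin machinery was covered by 10 lists with 112 further genes, of which 90 were tested. None had an adjusted p under 0.1 by edgeR (7 were higher and 2 were lower at an unadjusted p under 0.05). None did by limma-voom, which called 103 of the 16445 genes tested. DESeq2's Wald test called 4 of the 90 (*Flna*, *Acta1*, *Arpc1b* and *Filip1l*), beside 406 of the 16445 genes tested. As shares of the 90 genes, 7.78% were higher and 2.22% lower at an unadjusted p under 0.05, beside 5.40 and 3.75% of all genes tested. In 5.56% every library labelled β-catGOF; Mll1-/- lay above every other library and in 2.22% below, beside 3.34 and 2.94%. The median log2 fold change of the 90 genes was 0.15, with 59 above 0 and 31 below, and the median of all genes tested was 0.01.

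Among actins, *Acta1*, the skeletal muscle form, was scarce but separate. It held 243, 92, 69 and 83 counts in J_7075, J_7096, J_7135 and J_7136 and 17, 5, 9 and 29 counts in J_7079, J_7100, J_7134 and J_7139, or 14.3, 5.33, 3.73 and 5.45 CPM against 1.02, 0.351, 0.722 and 1.87 CPM. The log2 fold change of *Acta1* was 2.85 ± 0.62 (SE, edgeR adjusted p = 0.200), and 3.06 without J_7135. The muscle actins *Acta2*, *Actc1* and *Actg2* did not pass the filter on low counts, and 4.11% of the 31-base words of *Acta1* occurred in other genes, *Actb* among them.

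Among the filament cross-linkers, *Flna*, filamin A, which ties actin filaments into networks, had CPM of 19.1 (J_7075), 19.3 (J_7096), 32.9 (J_7135) and 25.5 (J_7136) against 12.2 (J_7079), 11.2 (J_7100), 9.14 (J_7134) and 7.36 (J_7139). The genotypes did not overlap, and the log2 fold change was 1.28 ± 0.26 (SE, edgeR adjusted p = 0.195), and 1.09 without J_7135. Of the 15 tested bundling, cross-linking and membrane linker genes, 11 had a log2 fold change above 0 and 2 of them an unadjusted p under 0.05, *Flna* and *Actn4*. *Actn4*, α-actinin 4, which was named after its values were seen, had a log2 fold change of 0.58, and of 0.32 without J_7135. The non-muscle myosin II genes, whose products pull on these filaments, lay between -0.16 and 0.42, and none of the 7 had an unadjusted p under 0.05.

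In the branching machinery most values were below 0. Of 17 tested genes of the Arp2/3 complex and its activators, 6 were above 0 and 11 below, with a median of -0.09. *Arpc1b*, a subunit of the complex, was the 1 gene with an unadjusted p under 0.05, at 0.68 ± 0.20 on the log2 scale (SE, edgeR adjusted p = 0.369) and 88.3 to 167 CPM in the libraries labelled β-catGOF; Mll1-/- against 66.3 to 74.0 CPM. Among the 10 formins and Ena/VASP proteins, which lengthen filaments, *Vasp* had a log2 fold change of 0.46 (adjusted p = 0.479, edgeR). Villin (*Vil1*), which bundles and severs the filaments of microvilli, lay at 148 to 199 CPM against 120.3 to 146 CPM (0.42, adjusted p = 0.371), while *Capza2*, a subunit of the barbed-end capping protein, lay at 277 to 365 CPM against 378 to 515 CPM (-0.35, adjusted p = 0.499, edgeR). The genotypes did not overlap for any of these 4 genes, but each was named for the smallest unadjusted p of its list and direction. *Acta1*, *Flna*, *Vcl* and *Filip1l* were named in the same way, so their separation adds no evidence. Of the 90 further genes, 5.56% lay wholly above and 2.22% wholly below, beside 3.34 and 2.94% of all genes tested. Without J_7135 the log2 fold change was 0.45 for *Arpc1b*, 0.35 for *Vasp*, 0.40 for *Vil1* and -0.34 for *Capza2*.

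The other genes with roles like those of *Cfl1* and *Pfn1* had values of either sign. Of the 12 further genes for monomer binding and filament turnover, 6 were above 0 and 6 below, and none had an unadjusted p under 0.05. *Dstn*, the cofilin relative destrin, was at 512 and 535 CPM (log2 fold change -0.06) and *Cfl2*, the muscle cofilin, at 32.4 and 45.5 CPM (-0.49, adjusted p = 0.574, edgeR), in the libraries labelled β-catGOF; Mll1-/- and the others respectively. The 7 tested kinases and phosphatases that switch cofilin off and on all had a log2 fold change above 0, from 0.01 to 0.45, with none at an unadjusted p under 0.05.

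SRF is a transcription factor whose coactivators are held back by monomeric actin, and it is known to act on many cytoskeletal genes. Of the 10 tested genes of this list, 9 were above 0, with a median of 0.32. *Srf* itself had 0.51 (adjusted p = 0.573), the coactivator *Mkl1* 0.85 (adjusted p = 0.696) and the focal adhesion gene *Vcl* 0.63 (adjusted p = 0.503, edgeR). *Filip1l* ran against the list with -0.80 ± 0.26 (SE, edgeR adjusted p = 0.421), at 29.7 to 57.4 CPM against 60.0 to 111 CPM without overlap. Without J_7135, *Vcl* had 0.47 and *Filip1l* -0.65. The CArG box, the sequence bound by SRF, was searched on both strands of RefSeq promoters of GRCm38.p6, which are windows of 300 bases around a start site. It was present in 1.63% of 32851 promoters and in promoters of 1.81% of 27025 genes. Of the 95 further listed genes with an entry, 11 held it. The lists include genes chosen for their link to SRF, so this count is partly set by that choice and was not tested. Of the 7 genes, *Tmsb10*, *Tmsb4x*, *Actg1*, *Cfl1* and *Pfn1* had an entry, and *Actg1* held it.

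**Figure D5:**
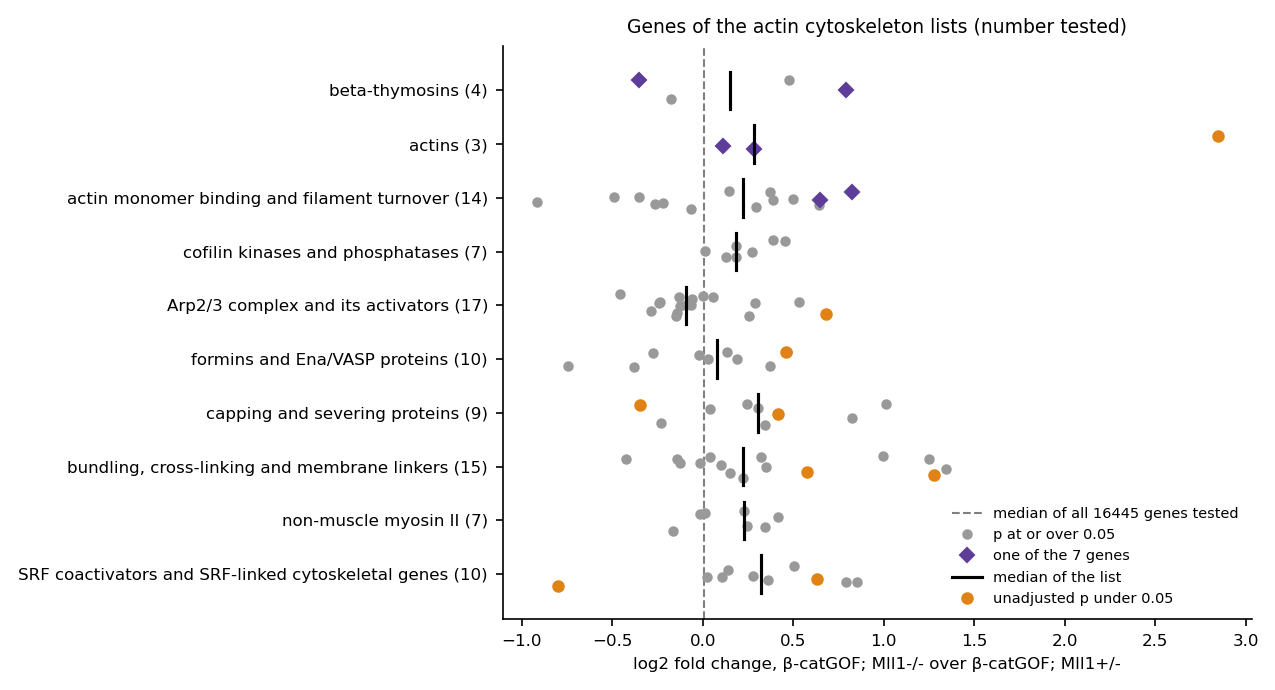
Log2 fold change of the libraries labelled β-catGOF; Mll1-/- over the β-catGOF; Mll1+/- libraries (horizontal axis) for each tested gene of the 10 actin cytoskeleton lists, with black bars at list medians, a dashed line at the median of all genes tested, diamonds for those of the 7 genes on a list and orange points for other genes with an unadjusted p under 0.05. *Acta1* (2.85) lies farthest right, and the Arp2/3 list has its median at -0.09.

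Markers of other cells were read beside these genes, since thymosins, *Cfl1*, *Pfn1*, *Flna* and *Acta1* are used by many cell types. Less RNA per cell and fewer cells of a type cannot be told apart in such pools. The 11 fibroblast and smooth muscle markers summed to 45.2 to 118 CPM in the libraries labelled β-catGOF; Mll1-/- and 2.97 to 6.34 CPM in the β-catGOF; Mll1+/- libraries without overlap, and *Vim* alone, named after its values were seen, made up 44.3 to 116 CPM and 0.194 to 4.89 CPM of these. Apart from *Vim*, each marker of this list was at or under 1.48 CPM in every library. The highest were *Col1a2* at 1.48 CPM in J_7075 and *Dcn* at 1.27 CPM in J_7096, both libraries labelled β-catGOF; Mll1-/-. The 14 leukocyte markers summed to 119.5 to 231 CPM and 93.8 to 228 CPM, nearly all of it from *Cd74*, and *Ptprc*, the gene of the CD45 antigen stained in the sort, was at or under 0.957 CPM. The 6 endothelial markers summed to 5.04 to 9.46 CPM and 5.41 to 7.55 CPM. The part of *Vim*-containing RNA in the differences of *Tmsb10*, *Flna* and *Acta1* was not tested.

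Within the epithelium, the summed markers also differed between the genotypes. The 8 stem cell markers summed to 10568 to 17135 CPM in the libraries labelled β-catGOF; Mll1-/- and 21693 to 25759 CPM in the β-catGOF; Mll1+/- libraries, the 8 enterocyte markers to 364 to 407 CPM and 435 to 534 CPM and the 8 enteroendocrine markers to 6.38 to 9.27 CPM and 10.3 to 54.3 CPM. These 3 sums did not overlap between the genotypes, and the enterocyte list holds *Vil1*. Most of the stem cell sum came from *Olfm4* (8080 to 14429 CPM and 19281 to 22949 CPM). *Axin2* was higher without overlap in the libraries labelled β-catGOF; Mll1-/- (185 to 267 CPM and 149 to 183 CPM). *Lgr5*, *Ascl2*, *Smoc2*, *Rnf43*, *Sox9* and *Epcam* overlapped between the genotypes. Goblet markers (688 to 1259 CPM and 607 to 806 CPM), Paneth markers (1559 to 5054 CPM and 3106 to 4846 CPM) and tuft markers (3.02 to 10.8 CPM and 2.51 to 3.37 CPM, with *Il25* at 0) overlapped in their sums. Single goblet and Paneth markers did separate. *Muc2* (25.4 to 81.8 CPM and 7.62 to 14.7 CPM), *Guca2a* (49.7 to 104 CPM and 11.5 to 32.4 CPM) and *Mmp7* (224 to 428 CPM and 138 to 165 CPM) were higher in the libraries labelled β-catGOF; Mll1-/-. *Itln1* (83.9 to 142 CPM and 149 to 366 CPM) and *Defa17* (39.5 to 53.1 CPM and 75.6 to 257 CPM) were lower. The other goblet and Paneth markers overlapped between the genotypes. Of the goblet markers, *Zg16* was mostly lower under the label β-catGOF; Mll1-/- (0 to 2.95 CPM and 2.39 to 37.5 CPM). *Agr2* was mostly higher (219 to 435 CPM and 163 to 234 CPM). Of all genes tested, 3.34% lay wholly above and 2.94% wholly below. The mitochondrially encoded genes took 17.1 to 30.1% of counts, with the lowest share in J_7135. Whether these differences in makeup bear on the thymosin and actin genes was not tested.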

How the data were processed

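Lgr5-GFP+ EpCAM+ cells of 8 mice were sorted and sequenced with the Smart-seq2 protocol, which carries no molecular identifiers. The authors aligned reads to mm10 with GSNAP and deposited raw counts of uniquely mapped reads per gene (featureCounts 1.6.3, strand not used, mapping quality of at least 1, Ensembl release 92). A second deposited table holds signal, the counts of each library divided by 1 DESeq2 size factor (0.811 to 1.17). It was used to find the genes by symbol, and the deposited gene length for levels per length. Versions and build follow the submitters' processing notes and the file headers.

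Low genes were removed by filterByExpr (minimum count 10, minimum total 15), and the remaining counts were scaled with TMM and tested with the robust quasi-likelihood test of edgeR 4.0.16 in R 4.3.3, two-sided, with genotype as the only term and Benjamini-Hochberg adjustment over 16445 genes. An adjusted p under 0.1 was taken as a difference. The SE was the size of the log2 fold change over the root of F, and intervals cover 95% under a t distribution with the degrees of freedom of the test. In CPM, 3 counts corresponded to 0.162 to 0.241 across libraries, a limit for counting error only. Alternatives used DESeq2 1.42.0 and limma 3.58.1, and leaving out libraries in the ratios was added after seeing the data. Transcripts of GENCODE M21 were compared as 31-base words.

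The genes, the 10 actin lists and the marker lists were chosen with earlier results of these data known. A further list is not reported here. Named in addition were the listed genes with the smallest unadjusted p under 0.05 in each list and direction, *Kmt2a*, *Xist* and the 5 genes most like *Tmsb10* and *Tmsb4x*. *Tmsb15b1*, *Tmsb15b2*, *Dstn*, *Cfl2*, *Srf*, *Mkl1*, *Mkl2*, *Actn4*, *Vim*, *Cd74* and the single markers were named after their values were seen.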

Additional observations from a re-analysis of the deposited data

Results flagged for a closer look

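Among 66 groups of 4 values examined, 5 had a library far from the other 3, where chance gives about 1 in 20. The log2 ratio of *Tmsb4x* to *Actb* per length was 3.56 in J_7096, while the other libraries labelled β-catGOF; Mll1-/- lay between 3.18 and 3.23. *Acta1* was at 14.3 CPM in J_7075 and at 3.73 to 5.45 CPM in the other libraries of that label, and *Vasp* was at 54.3 CPM in J_7135 and at 41.0 to 42.2 CPM in the others. In the β-catGOF; Mll1+/- libraries, *Capza2* was at 515 CPM in J_7139 and at 378 to 398 CPM in the others, and *Kmt2a* was at 64.9 CPM in J_7100 and at 48.9 to 51.2 CPM in the others.

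*Actg1* was 1 of 24 measures whose direction was opposite in the 2 library sets in every library, with a log2 difference of 0.36 in set 1 and -0.15 in set 2. The difference between the sets was not tested.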

How the results depend on the processing

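*Tmsb4x*, *Actb*, *Actg1*, *Cfl1* and *Pfn1* kept the direction of their log2 fold change in each of 90 refits under other scalings, filters, tests, covariates and with 1 library left out. With 1 library left out, *Cfl1* ranged from 0.39 to 0.79 and *Pfn1* from 0.42 to 1.03. The choice of *Tmsb10* and *Gm9844*, which is no test of them, depended on the setting. The number of the pair with an adjusted p under 0.1 was 0 in place of 2 under upper-quartile factors, with the library sets as a block and with *Xist* as a covariate, and 1 when both were summed to 1 gene. It ranged from 0 to 2 with 1 library left out, and it was 2 only without J_7135. *Tmsb4x*, *Actb*, *Actg1*, *Cfl1* and *Pfn1* stayed above 0.1 under each alternative. At an unadjusted p under 0.05 the number of these 5 that were lower was 1 in place of 0 with the block, and with 1 library left out it ranged from 0 to 1 (1 without J_7096 or J_7139) and the number of higher ones from 1 to 3 (1 without J_7100 or J_7139, 3 without J_7135). The number of all genes past 0.1 was 8 with upper-quartile factors, 47 without a filter, 34 with at least 10 counts in every library, 406 with DESeq2's Wald test, 103 with limma-voom and 0 with the block or *Xist*. It ranged from 0 to 45 with 1 library left out, with 2 without J_7075 and 45 without J_7135. Of the further listed genes, DESeq2's Wald test called 4. At an unadjusted p under 0.05 the number of higher ones ranged from 6 to 13 with 1 library left out (13 without J_7096), and the number of lower ones was 4 with the block, 5 with *Xist* and from 1 to 5 with 1 library left out (5 without J_7096, 1 without J_7139). The causes were not tested. The labels give each mouse its own number and no shared replicate number, and no fit with paired mice was run. The depth limits *Acta1*, which had 5 to 29 counts in the β-catGOF; Mll1+/- libraries.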
